A study of Triticum aestivum with 15 samples.

Results

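Dry and wet flag leaves were compared at the heading stage in TAM111 and TAM112, both hard red winter wheats, which asks which genes of the leaf responded to water deficit before grain filling. The comparison used 7 of the 15 libraries of the series. TAM111 dry, TAM112 dry and TAM112 wet had 2 libraries each, and TAM111 wet had 1. Expression was read as FPKM (fragments scaled to transcript length in kilobases and to the number of mapped fragments) summed over the positions of each locus of the merged transcript catalogue. A locus was kept if it held a reference gene and reached an FPKM of at least 1 in 2 or more of the 7 libraries. This left 37023 of the 110167 loci with a gene name.

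Both cultivars are adapted to the dry United States Great Plains, and TAM112 carries a rye chromosome arm that the Chinese Spring reference lacks. Pots of both treatments were kept at full water content at first. From jointing on, the dry pots were let down to around 50% gravimetric water content, while the wet pots were held at 90%. Leaves of 4 plants were pooled for each sample, 79 days after transplanting. The p-values therefore measure the spread between a few pooled samples of 1 greenhouse experiment, and every TAM111 comparison rests on a single wet library. In RNA of whole leaves, fewer cells of a type and less RNA per cell cannot be told apart.

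A leaf that loses water closes its stomata through abscisic acid (ABA), which blocks protein phosphatases 2C and so releases SnRK2 kinases to act on transcription factors. Cells also make proline and raffinose-type sugars, and small hydrophilic proteins such as dehydrins and other late embryogenesis abundant (LEA) proteins that keep membranes and enzymes from damage. Small heat shock proteins hold unfolding proteins until Hsp70 and ClpB chaperones refold them. At the cell surface, wall-associated kinases and other receptor-like kinases sense the wall and pathogens. Bread wheat carries most genes as copies on the A, B and D subgenomes.

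The confidence bounds of the FPKM values implied a depth between 5.81 and 6.92 M fragments per library, a rough estimate that depends on the transcript lengths assumed. The paper reports far more filtered reads per sample, so implied fragments here and below are not counts of reads. Replicates of a group correlated across loci at r between 0.882 and 0.885, and between 11.8% and 12.5% of loci stood at least 2-fold apart between them. Summed over 6 loci of chlorophyll-binding proteins, photosystem II and Rubisco activase, the dry libraries held 176 to 260 FPKM and the wet libraries 87.3 to 145. The share of FPKM outside any catalogue locus was 0.932% to 11% in dry and 11.9% to 26.1% in wet libraries. Both measures separated dry from wet, and their part in the results was not tested. The library labelled TAM111 dry 1 stood apart from its cultivar. Of 103 loci present in every TAM111 library and in no TAM112 library at grain filling, it held 68.9%, against 89.3% and 97.1% in the other TAM111 libraries and at most 2.91% in TAM112. Of 11 loci with the reverse pattern, it held 45.5%, the same as TAM111 wet 1, against 18.2% in TAM111 dry 2 and 72.7% to 90.9% in TAM112. Admixture of TAM112 in this library was not tested. The number of DEGs and the counts of several gene lists are also given without it below.

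Between dry and wet leaves, 49 loci were dry–wet DEGs (limma, cultivar as a block, adjusted p below 0.05 and at least 2-fold), of which 22 were up regulated and 27 were down regulated in dry leaves. These are 0.132% of the loci tested, 0.0594% up and 0.0729% down. At an unadjusted p below 0.05, 2727 loci (7.37%) were higher and 2118 (5.72%) lower under dry conditions. The median change over all loci was 0.05 on the log2(FPKM + 1) scale. All changes below are on this scale, which understates the change of weakly expressed loci. At every one of the 49 loci the 4 dry libraries lay all above or all below the 3 wet libraries. The same direction in both cultivars follows from this. Calls on the same 7 libraries favour such separation, so neither is further evidence. Over all loci, libraries that did not overlap together with a change of at least 2-fold were found at 632 loci (1.71%) higher and 561 loci (1.52%) lower under dry conditions, 3.22% in all. These counts depended on the libraries used, and with fewer libraries not overlapping is easier to meet. With 1 library left out they lay between 698 and 1003 higher loci and between 612 and 900 lower loci. The higher loci numbered 885 without TAM111 dry 1, 981 without TAM111 wet 1 and 1003 without TAM112 wet 1, and the lower loci 710 without TAM111 dry 1 and 900 without TAM112 wet 2. The 1.71% higher and 1.52% lower are the shares to set beside such counts of every gene list below. They hold for all 7 libraries only. The A, B and D subgenomes held 14, 17 and 18 of the 49 DEGs among 12244, 12093 and 12380 loci tested. At grain filling, which used other libraries, all 22 up-regulated loci and 25 of the 27 down-regulated loci moved in the same direction, and 32 were also called, among 2668 of the 37023 loci called there.

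The call of nearly all 49 loci needed every library. With 1 library left out, the number called was 7 without TAM111 dry 1, 2 without TAM111 dry 2 and 27 without TAM111 wet 1. It was 1 and 2 without the TAM112 dry libraries 1 and 2, and 17 and 10 without the TAM112 wet libraries 1 and 2. Between 0 and 6 of these were among the 49.

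A product name from the study's own gene lists was at hand for 14 of the 49 loci, 6 up and 8 down regulated. Those lists were drawn from DEGs of these same samples. The direction of their members is therefore not independent evidence. Nor are their shares beside those of all loci, or their differences between cultivars. Among the up-regulated loci were 3 small heat shock proteins, an ABA-inducible kinase, an LEA protein and a D-alanine–D-alanine ligase. The down-regulated loci held an early light-inducible protein, 2 receptor kinases, an amino acid transporter, a cadmium resistance protein, a thiosulfate sulfurtransferase, a terpene synthase and a locus named calreticulin.

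**Figure D1:**
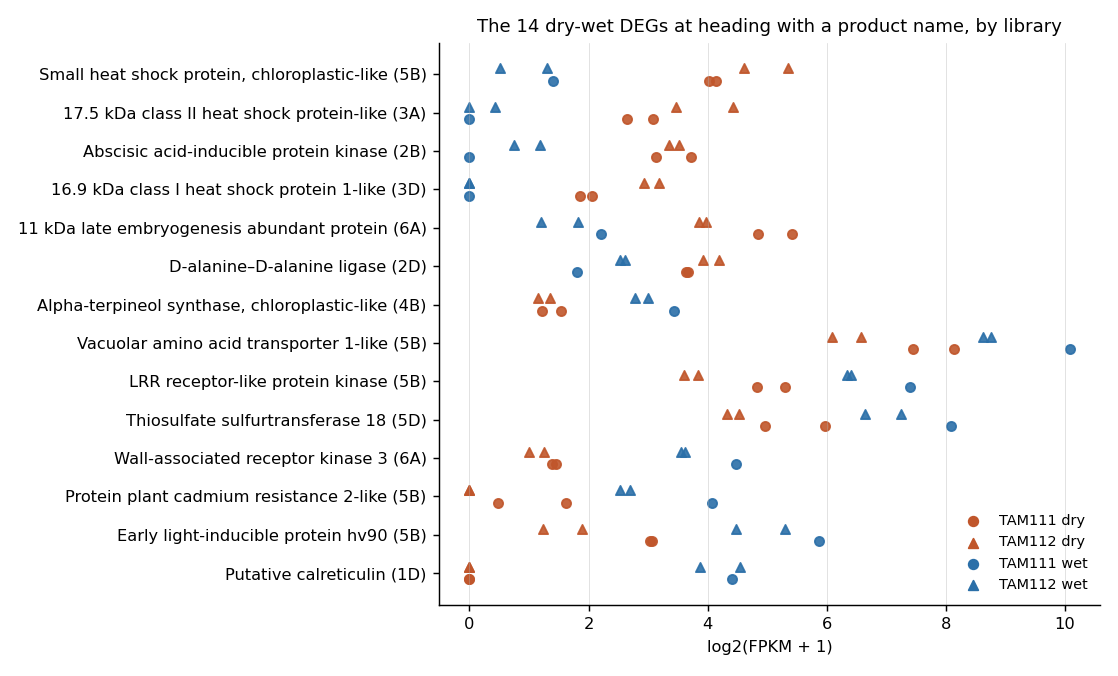
Each point is 1 library, placed by its log2(FPKM + 1) value, for the 14 dry–wet DEGs with a product name (chromosome in brackets); dry libraries are orange, wet libraries blue, circles TAM111 and triangles TAM112. At all 14 loci the dry and wet libraries do not overlap, and the locus named calreticulin is at 0 in all 4 dry libraries.

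The up-regulated locus with the largest change was L_076918 (TraesCS5B01G257000, chr5B_part1 439650507 to 439651562), a chloroplastic small heat shock protein. Its FPKM was 15.3 and 16.7 in TAM111 dry against 1.64 in TAM111 wet, and 39.7 and 23.5 in TAM112 dry against 1.47 and 0.422 in TAM112 wet. The dry leaves of both cultivars were thus well above every wet leaf, and the change was 3.52 (SE 0.38, adjusted p = 0.043). The 17.5 kDa class II heat shock protein L_035929 (TraesCS3A01G113100, chr3A_part1 80413047 to 80413827), a cytosolic chaperone of unfolding proteins, was at 5.28 and 7.45 FPKM in TAM111 dry and at 20.4 and 10.1 in TAM112 dry. In wet leaves it was listed at 0 in TAM111 and at 0 and 0.343 in TAM112, and the change was 3.39 (SE 0.33, adjusted p = 0.037). The 16.9 kDa class I heat shock protein L_050062 (TraesCS3D01G045500, chr3D_part1 17391738 to 17392193) was listed at 0 in all 3 wet libraries. It reached 2.62 and 3.16 FPKM in TAM111 dry and 6.67 and 8.12 in TAM112 dry (change 2.62, SE 0.27, adjusted p = 0.040). By the rough estimate above, its highest value rested on about 14 implied fragments.

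L_026538 (TraesCS2B01G521800, chr2B_part2 263590628 to 263597315) encodes an ABA-inducible protein kinase, the family through which ABA reaches its target proteins. It was at 12.2 FPKM in TAM111 dry 2 and between 7.78 and 10.5 in the other dry libraries. In wet leaves it was listed at 0 in TAM111 and stood at 1.28 and 0.673 in TAM112, a change of 2.85 (SE 0.29, adjusted p = 0.037). The 11 kDa LEA protein L_088388 (a merged locus with TraesCS6A01G111900 and TraesCS6A01G112000, chr6A_part1 80883986 to 81110919) was the only named up-regulated locus here that was higher in TAM111 dry, at 27.9 and 41.9 FPKM, than in TAM112 dry, at 13.5 and 14.8. Wet leaves held 3.64 in TAM111 and 1.30 and 2.54 in TAM112 (change 2.61, SE 0.25, adjusted p = 0.037). L_031166 (TraesCS2D01G091400, chr2D_part1 43369204 to 43378057), named for the D-alanine–D-alanine ligase of bacterial cell wall synthesis, was at 11.4, 11.7, 14.1 and 17.2 FPKM in the dry libraries. The wet libraries held 2.48, 5.15 and 4.76 FPKM, and the change was 1.63 (SE 0.17, adjusted p = 0.043).

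Among down-regulated loci, L_086549 (TraesCS6A01G000200, chr6A_part1 103431 to 110267) encodes wall-associated receptor kinase 3, which spans the plasma membrane and binds wall pectin in related proteins of Arabidopsis. It fell from 21.3 FPKM to 1.62 and 1.75 in TAM111 and from 11.2 and 10.8 to 1.01 and 1.38 in TAM112. The change was -2.69 (SE 0.19, adjusted p = 0.021), and dry values were close to each other across cultivars. The terpene synthase L_059364 (alpha-terpineol synthase, TraesCS4B01G009500, chr4B_part1 6038949 to 6059054) makes a volatile monoterpene. It was between 1.23 and 1.90 FPKM in dry and at 9.86, 5.86 and 6.99 in wet libraries (change -1.81, SE 0.19, adjusted p = 0.043). L_074104 (cadmium resistance 2-like, TraesCS5B01G009000, chr5B_part1 9284415 to 9286096), a membrane protein named for metal export, was listed at 0 in both TAM112 dry libraries and at 2.06 and 0.393 FPKM in TAM111 dry. Wet leaves held 15.9 in TAM111 and 4.78 and 5.51 in TAM112 (change -2.78, SE 0.30, adjusted p = 0.043).

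On chromosome 5B, 3 of the DEGs lay within 293630 bp (chr5B_part1 391825952 to 392119581), a stretch with 5 tested loci that was picked out after the values were seen. The first, L_076744 (TraesCS5B01G217900), encodes an early light-inducible protein, which binds chlorophyll in the thylakoid under light stress. It was at 7.15 and 7.36 FPKM in TAM111 dry against 57.2 wet, and at 2.73 and 1.36 in TAM112 dry against 21.3 and 38.4 wet (change -3.12, SE 0.28, adjusted p = 0.034). The leucine-rich repeat receptor-like kinase L_075276 (TraesCS5B01G218200) was at 27.6 and 38.4 FPKM in TAM111 dry against 169 wet, and at 11.2 and 13.3 in TAM112 dry against 80.0 and 83.9 wet. Its change was -2.53 (SE 0.19, adjusted p = 0.021). The vacuolar amino acid transporter L_075279 (a merged locus with TraesCS5B01G218500 and TraesCS5B01G218600) moves amino acids across the tonoplast and was the most strongly expressed of the 3, at 1090.1 FPKM in TAM111 wet against 174 and 281 dry. In TAM112 it stood at 394 and 433 FPKM wet against 94.0 and 67.3 dry (change -2.34, SE 0.22, adjusted p = 0.034). The other 2 tested loci of the stretch were below 12 FPKM in every library and overlapped between treatments, with changes of -0.13 and -0.36. Over the whole of chromosome 5B, 7 of 1996 loci tested were DEGs.

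A second stretch of 153056 bp on chromosome 5D (chr5D_part1 334969113 to 335122168), also picked out after the values were seen, held 4 tested loci, 1 of them a DEG. This was the merged locus L_081559 named for thiosulfate sulfurtransferase 18, an enzyme that passes sulfur to cyanide. It was at 271 FPKM in TAM111 wet against 30.3 and 61.5 dry, and at 150.4 and 99.5 in TAM112 wet against 22.1 and 19.1 dry (change -2.56, SE 0.28, adjusted p = 0.048). Its neighbour L_083600, a nitrate or peptide transporter of the NRT1/PTR family 3.1, did not pass the test, with 134 FPKM in TAM111 wet against 13.9 and 42.7 dry and 62.0 and 58.9 in TAM112 wet against 1.21 and 9.21 dry (change -3.18, SE 0.64, adjusted p = 0.15). Of the other loci there, L_083601 was lower in every dry library without passing (change -2.28, adjusted p = 0.10), and L_083602 overlapped, with a change of 0.83 in the opposite direction (adjusted p = 0.39).

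The locus named putative calreticulin, L_011407 (chr1D_part1 269393830 to 269442383), was listed at 20.3 FPKM in TAM111 wet, at 22.2 and 13.7 in TAM112 wet and at 0 in all 4 dry libraries (change -4.29, SE 0.21, adjusted p = 0.0086). The entry of the annotated gene TraesCS1D01G193400 itself was at 0 in all 7 libraries. The wet values came from assembled transcripts at the same position, so the change cannot be tied to calreticulin, a chaperone of the endoplasmic reticulum. Of the 49 DEGs, 7 had entries that could belong to an overlapping locus, 6 were at 0 in all dry and 4 at 0 in all wet libraries.

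The 35 DEGs without a product name can be given by identifier only, since neither the files nor the lists pair them with names. The largest rises were L_113297 (TraesCS7D01G066800), at 5.12 to 10.5 FPKM in dry and 0 in wet libraries (change 2.92, adjusted p = 0.033), and L_095455 (TraesCS6B01G284300), at 4.06 to 11.2 in dry and at most 0.513 in wet libraries (change 2.92, adjusted p = 0.033). The first has an entry that could belong to an overlapping locus. L_091312 (TraesCS6B01G037800) fell from 82.3, 24 and 106 FPKM in wet to between 1.03 and 3.40 in dry libraries (change -4.54, SE 0.49, adjusted p = 0.043). The largest fall, -8.0 at L_118115 (TraesCS7D01G373200), came from how entries were assigned. All entries overlapping that locus together summed to 409 to 490 FPKM in dry and 445 to 626 in wet libraries.

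Heat shock proteins made up the group of listed loci with the most calls. Of the 33 small heat shock proteins tested, 3 rose, none fell, and 22 were at least 2-fold higher with all dry libraries above all wet libraries, against 1.71% of all loci. This count was 25 without TAM111 dry 1, 21 without TAM112 dry 1 and 23 without TAM111 wet 1. The median change was 2.31, against 0.05 over all loci, and 13 of the 33 were listed at 0 in every wet library. Besides the 3 called loci, the smallest p belonged to L_095790, a 24.1 kDa mitochondrial heat shock protein on 6B. It was at 17.4 and 16.4 FPKM in TAM111 dry against 5.29 wet and at 24.7 and 21.5 in TAM112 dry against 4.67 and 7.13 wet (change 1.70, SE 0.20, adjusted p = 0.056). The 17.9 kDa class I protein L_060474 on 4B was listed at 0 in all wet libraries and at 4.67 and 10.1 FPKM in TAM111 dry. In TAM112 dry it reached 52.6 and 29.9 (change 4.40, adjusted p = 0.070). The 17.5 kDa class II protein L_048541 on 3D had the largest change of the group, 4.48 (SE 0.62, adjusted p = 0.080), with 5.12 and 9.97 FPKM in TAM111 dry, 92.5 and 34.6 in TAM112 dry and at most 0.749 in wet leaves.

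The larger chaperones, which refold or untangle proteins with ATP, followed with no call. Of 12 ClpB1, Hsp90 and Hsp70 loci, 11 were at least 2-fold higher with no overlap and 1 lower, against 1.71% and 1.52% of all loci. The median was 2.07 and the lowest adjusted p 0.095. The number higher was 8 without TAM112 dry 1 and 11 without TAM111 dry 1. The heat shock cognate 70 kDa protein L_065046 on 4D was at 11.9 and 3.93 FPKM in TAM111 dry against 0.365 wet, and at 9.69 and 4.59 in TAM112 dry against 0.210 and 0.400 wet (change 2.56, SE 0.39, adjusted p = 0.095). Heat shock protein 90 on 2D (L_030861) reached 45 FPKM in TAM112 dry 1 and did not pass 1.10 in wet leaves (change 3.42, adjusted p = 0.11). For clpb1 on 1D (L_014135) the change was 2.42 (adjusted p = 0.13) and for the cognate 70 kDa protein 2 on 4A (L_054388) it was 1.09 (adjusted p = 0.16). The exception was the clpb1 copy on 4B, L_062816, at 66.2 FPKM in TAM111 wet against 7.33 and 5.56 dry and at 11.9 and 11.2 in TAM112 wet against 2.92 and 6.81 dry (change -1.98, adjusted p = 0.18). A co-chaperone outside these lists, the 70 kDa peptidyl-prolyl isomerase L_004003 on 1A, was at 34.0 and 26.3 FPKM in TAM111 dry against 10.7 wet, and at 71.2 and 43.4 in TAM112 dry against 11.1 and 11 wet (change 1.90, adjusted p = 0.088).

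Heat stress transcription factors switch on chaperone genes. None of the 10 tested passed, and the median was 1.56. With no overlap, 5 were at least 2-fold higher (5 also without TAM111 dry 1), against 1.71% of all loci. Heat shock factor protein 7 on 7D (L_116288) was at 5.55 and 5.09 FPKM in TAM111 dry against 1.67 wet, and at 17.7 and 22.8 in TAM112 dry against 1.16 and 1.36 wet (change 2.43, SE 0.41, adjusted p = 0.11). Its copies on 7A and 7B had changes of 1.98 and 1.47, the b-2c-like factor L_079008 of 1.71 and the a-2c factor L_014932 of 1.28, with no overlap between dry and wet libraries at any of them.

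**Figure D2:**
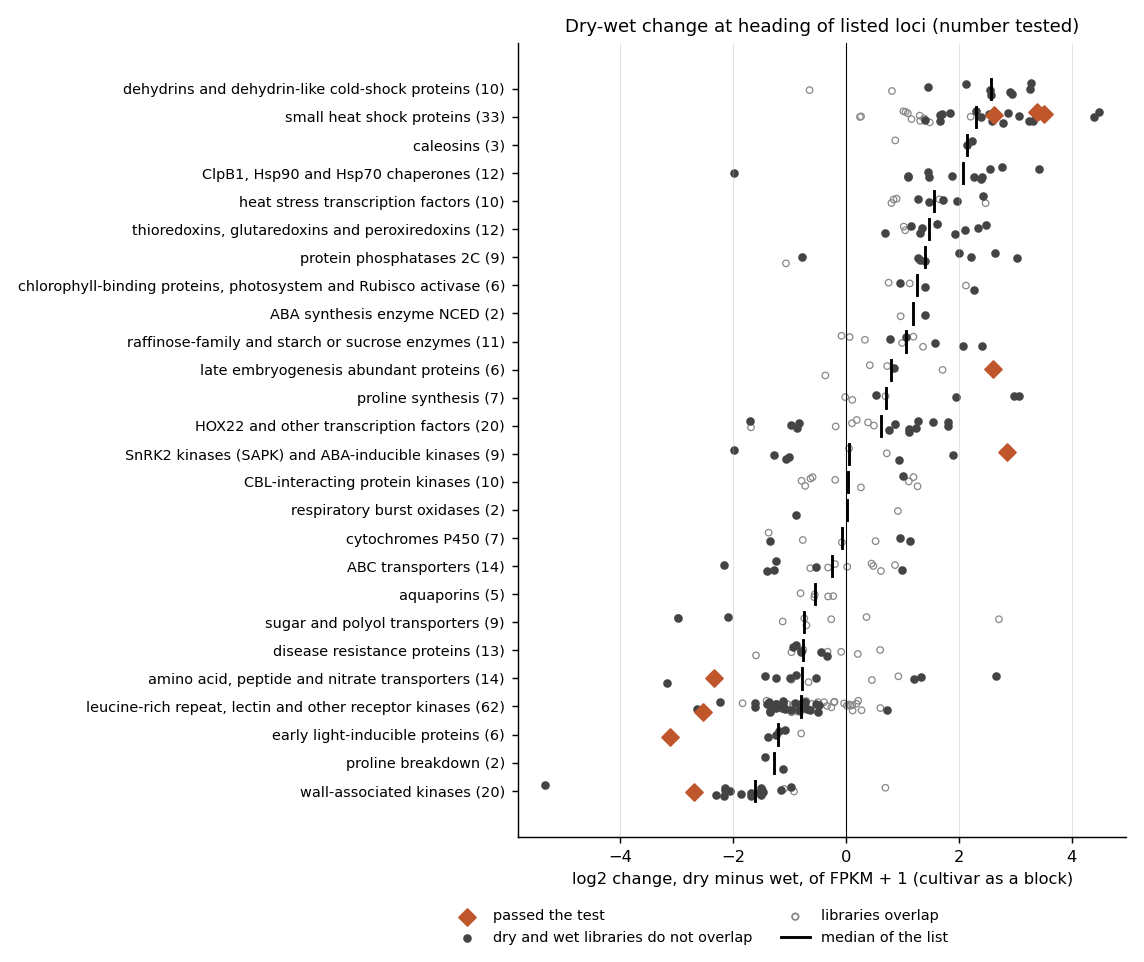
Each point is a tested locus of a gene list (number tested in brackets), placed by its dry minus wet change of log2(FPKM + 1) with cultivar as a block. Diamonds passed the test, filled points had dry and wet libraries that did not overlap, open points overlapped, and the bar is the median of the list, which runs from 2.57 for dehydrins to -1.61 for wall-associated kinases.

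Dehydrins, which coat membranes and proteins as water is lost, had the highest median of the lists, 2.57 over 10 loci tested, and no call. Of the 10, 8 were at least 2-fold higher with no overlap, against 1.71% of all loci. In all 8 the highest library was TAM112 dry 1. The count was 8 without TAM111 dry 1 and between 7 and 8 whichever library was left out. Dehydrin 9 on 5B (L_079533) was listed at 0 in all wet libraries and stood at 2.06 and 3.26 FPKM in TAM111 dry and 11 and 4.82 in TAM112 dry (change 2.58, SE 0.37, adjusted p = 0.088). Dehydrin 3 on 6D (L_098330) was at 69.2 and 125 FPKM in TAM111 dry against 16.9 wet, and at 363 and 111.8 in TAM112 dry against 12.9 and 13.2 wet (change 3.27, SE 0.51, adjusted p = 0.10). The dehydrin 7 locus L_098331 beside it had a change of 2.56 (adjusted p = 0.19). The other 2 were cold-shock proteins on 6D with overlapping values. CS66-like (L_098326) was at most 2.59 FPKM in any library (change 0.81), and CS120 (L_098325) was at 9.5 FPKM in TAM111 wet and at most 2.43 elsewhere (change -0.65).

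The other LEA proteins were mostly too low to test at heading. Of 14 listed, 6 were tested, with 1 call, the 11 kDa protein above, and a median of 0.79. Of the 8 not tested, 6 had their highest value in TAM112 dry 1, up to 11.3 FPKM, and 2 were at 0 in all 7 libraries. The Lea5-like protein L_050760 on 3D was at 2.47 and 8.07 FPKM in TAM111 dry and listed at 0 wet, while TAM112 overlapped (change 1.71, adjusted p = 0.30). The LEA 31-like protein L_105975 had a change of 0.86 and the 2B protein L_026215 of 0.73. An 11 kDa LEA-like copy on 6D (L_097631), by contrast with that on 6A, was at 36.6 and 20.5 FPKM in TAM111 dry against 67 wet and at 83.0 and 73.4 in TAM112 dry against 33.2 and 20.4 wet.

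Proline protects cells as a compatible solute, and P5CS makes its precursor from glutamate. None of 7 proline synthesis loci passed, and the 3 with dry libraries above wet and at least 2-fold were the P5CS2 copies of 3A, 3B and 3D. The 3D copy (L_049806, chr3D_part1 469479553 to 469486472) was at 16.7 and 29.1 FPKM in TAM111 dry against 2.40 wet and at 72.2 and 21.1 in TAM112 dry against 3.48 and 2.78 wet (change 3.08, SE 0.44, adjusted p = 0.088). The 3B copy (L_044951) reached 129 FPKM in TAM112 dry 1 and had a change of 2.97, and the 3A copy (L_038670) of 1.95. The separate P5CS locus on 1B (L_009252) had a change of 0.54. Proline dehydrogenase 2, which starts proline breakdown in the mitochondrion, went the other way without passing. The 1D copy (L_011515) was at 5.29 and 1.73 FPKM in TAM111 dry against 7.33 wet and at 1.13 and 2.91 in TAM112 dry against 10.1 and 7.33 wet (change -1.44, adjusted p = 0.22), and the 1B copy (L_006157) had a change of -1.12. The genes that the study assayed by RT-qPCR were the 3D copy of P5CS2, a wall-associated kinase, sugar transport protein 13 and dehydrin DHN3. The primers for P5CS2 and the kinase are shown. They were not placed on the genome here, so which copies they read is not known.
P5CS2 3D forward: gaaatggcgcttgacatag
P5CS2 3D reverse: ctagttttgttcacccctgt
WAK2 5B forward: ggctgctgccacgtagac
WAK2 5B reverse: gtggtgttgaaggtgtaatg

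Within ABA signalling the changes of the members differed in sign. NCED cuts carotenoids in the limiting step of ABA synthesis, and its 5A locus L_071369 was at 3.51 and 3.35 FPKM in TAM111 dry against 0.677 wet and at 9.0 and 2.16 in TAM112 dry against 1.32 and 0.923 wet (change 1.41, adjusted p = 0.23). The other, L_084623 on 5D, overlapped (change 0.97). Protein phosphatases 2C, the brake on the pathway, had a median of 1.40 and no call. With no overlap, 7 of 9 loci were at least 2-fold higher (7 without TAM111 dry 1), against 1.71% of all loci. The other 2 had negative changes, -0.78 for phosphatase 2C 27 on 6B (L_094875), with all dry libraries below the wet ones, and -1.06 for phosphatase 2C 53 on 1A (L_003937), which overlapped (adjusted p = 0.33 for both). Protein phosphatase 2C 30 on 4D (L_065068) was at 12.7 and 23.1 FPKM in TAM111 dry against 3.80 wet and at 29.7 and 14.3 in TAM112 dry against 4.05 and 2.31 wet (change 2.21, SE 0.35, adjusted p = 0.10). Phosphatase 2C 37 (L_030704) had a change of 2.65, and the phosphatase 2C 68 copies of 5B (L_075070) and 5A (L_069015) of 2.0 and 1.32.

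Of 9 SnRK2 and ABA-inducible kinases, 1 rose, L_026538 above. With no overlap, 2 were at least 2-fold higher and 4 lower, against 1.71% and 1.52% of all loci. The number lower was 2 without TAM111 dry 2 and 4 without TAM111 dry 1. SAPK1 on 2A (L_019626) was at 5.39 and 4.88 FPKM in TAM111 dry against 0.773 wet and at 9.05 and 5.30 in TAM112 dry against 0.319 and 2.18 wet (change 1.89, adjusted p = 0.13). SAPK2, a kinase of the same family, was lower in every dry library at all 3 copies, of which the 2D copy (L_031590) was at 10.6, 8.90, 9.02 and 5.17 FPKM dry against 21.4, 21.8 and 18.2 wet (change -1.27, SE 0.23, adjusted p = 0.13). A second ABA-inducible kinase locus on 2B, L_022126, was listed at 0 in both TAM111 dry libraries against 8.34 wet, and at 2.35 and 4.92 in TAM112 dry against 8.94 and 9.08 wet (change -1.99, adjusted p = 0.18). CBL-interacting kinases, which act on calcium signals, had no call in 10 loci and a median of 0.04. CIPK14 on 4B (L_061133) had a change of 1.01 with no overlap. Its 4A and 4D copies, at 1.20 and 1.27, and CIPK16 on 5A (L_069237), at 1.11, overlapped. Of the 10 changes 5 were negative, among them those of CIPK7 on 5A, 5B and 5D, at -0.59, -0.79 and -0.72, which also overlapped.

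Caleosins bind calcium at lipid droplets. The 2D locus L_034129 was at 18.4 and 23.3 FPKM in TAM111 dry against 6.17 wet and at 29.9 and 16.7 in TAM112 dry against 2.92 and 2.57 wet (change 2.23, SE 0.31, adjusted p = 0.080). The 2B locus was listed at 0 in all wet libraries (change 2.15), and the 2A locus overlapped (change 0.87). ERD15-like loci of 3A, 3B and 3D, named for early response to dehydration, overlapped at all copies, with changes of 0.45, 0.54 and 0.65.

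Of 20 transcription factors outside the heat stress family, none passed. With no overlap, 7 were at least 2-fold higher and 1 lower, against 1.71% and 1.52% of all loci. The number lower was 2 without TAM111 dry 1 and 3 without TAM111 dry 2 or TAM111 wet 1. HOX22, a homeodomain-leucine zipper factor, was higher at all 3 copies. On 2D (L_032943) it was at 11 and 14 FPKM in TAM111 dry against 3.50 wet and at 16.2 and 10.4 in TAM112 dry against 2.07 and 3.19 wet (change 1.81, SE 0.24, adjusted p = 0.077). G-box-binding factor 4 on 3A (L_040319) had a change of 1.55 (adjusted p = 0.12). In the other direction, basic leucine zipper 25 on 4A (L_056568) was at 16.6 and 9.15 FPKM in TAM111 dry against 38.9 wet and at 9.05 and 9.69 in TAM112 dry against 32.0 and 36.9 wet (change -1.69, SE 0.23, adjusted p = 0.079).

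**Figure D3:**
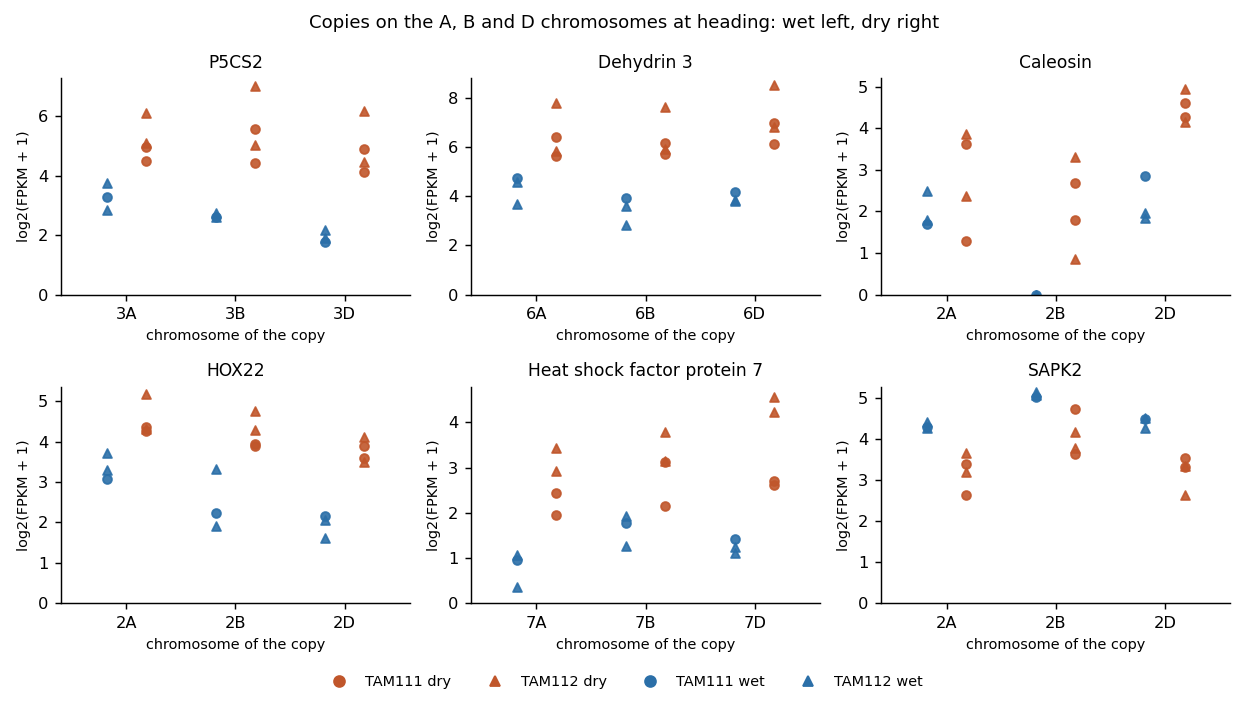
Each point is 1 library, by log2(FPKM + 1), for loci sharing a product on chromosomes of the A, B and D subgenomes; wet libraries stand left (blue) and dry libraries right (orange), with circles for TAM111 and triangles for TAM112. Dry libraries lie above wet libraries at all 3 copies of P5CS2, dehydrin 3, HOX22 and heat shock factor protein 7 and below them at all 3 copies of SAPK2, while the 2A caleosin overlaps.

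Where a product had copies on all 3 subgenomes, the changes of the copies named here had 1 sign in each set. P5CS2 had changes of 1.95 on 3A, 2.97 on 3B and 3.08 on 3D, and dehydrin 3 of 2.13 on 6A, 2.94 on 6B and 3.27 on 6D. The copies of HOX22 had changes of 1.24, 1.82 and 1.81 and those of SAPK2 of -1.06, -1.01 and -1.27. Galactinol-sucrose galactosyltransferase 2, which builds raffinose, had changes of 1.58 on 3A, 0.78 on 3B and 1.07 on 3D, with dry above wet libraries at each. The SEs of these changes were between 0.19 and 0.57, and the differences between copies were not tested. Naming rested largely on small p-values, which favours sets of 1 sign. Sets not named elsewhere included some of mixed sign. A 2-oxoglutarate-dependent oxygenase had changes of 0.16 on 1A, -0.23 on 1B and 0.33 on 1D. Electron transfer flavoprotein subunit beta had 0.72 on 6A, 0.16 on 6B and -0.03 on 6D. Levels between copies are compared per kilobase of transcript only. By that measure the 3B copy of P5CS2 had the highest value of its set, 129 FPKM in TAM112 dry 1.

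Redox proteins and sugar enzymes had positive medians and no call. Of 12 thioredoxins, glutaredoxins and peroxiredoxins, which keep protein thiols reduced, 8 were at least 2-fold higher with no overlap (median 1.47), against 1.71% of all loci. The number was 5 without TAM112 dry 1, 7 without TAM111 wet 1 and 8 without TAM111 dry 1. Peroxiredoxin-2E-1 on 7B (L_111804) was at 3.49 and 5.27 FPKM in TAM111 dry against 0.832 wet and at 8.66 and 5.52 in TAM112 dry against 0.985 and 0 wet (change 2.11, adjusted p = 0.11). Its 7A copy (L_106292) had a change of 1.16, thioredoxin-like 1-2 on 4B (L_060278) of 1.61 and glutaredoxin-C1 on 3B (L_046666) of 2.48. Of 11 raffinose-family, starch and sucrose enzymes, 4 were higher in this way (median 1.07). Beta-amylase 1 of the chloroplast, which releases maltose from starch, was at 7.34 and 7.56 FPKM in TAM111 dry against 3.36 wet at its 4D locus L_067870, and at 19.6 and 26.2 in TAM112 dry against 1.59 and 0.963 wet (change 2.42, adjusted p = 0.16). Its 4B locus (L_063558) had a change of 2.07. The tested cytochromes P450 and respiratory burst oxidases were split, with 1 of 7 and 0 of 2 loci at least 2-fold higher, and 1 and 0 lower. Each of these counts lay between 0 and 2 with 1 library left out. Another 5 listed P450 loci were not tested. Of them, L_100764 (71a1) was at 265 to 629 FPKM in dry and 94.3 to 107 in wet libraries. L_077120 (709b2) was at 20.4 to 31.7 in dry and 6.39 to 10.3 in wet libraries, and the rest overlapped. The P450 locus with the smallest p, 71A1-like on 5D (L_083555), had a change of -1.35, and the next, 90B1 of brassinosteroid synthesis (L_062008), of 1.14.

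Wall-associated kinases had the lowest median of the lists. Of 20 tested, 1 fell, L_086549, and 16 were at least 2-fold lower with every dry library below every wet library, against 1.52% of all loci. The number was 17 without TAM111 dry 1 and between 14 and 17 whichever library was left out. The median change was -1.61. Wall-associated receptor kinase 4 on 2B (L_028305) was at 2.52 and 2.09 FPKM in TAM111 dry against 14.3 wet and at 1.11 and 2.47 in TAM112 dry against 7.67 and 7.07 wet (change -1.86, SE 0.24, adjusted p = 0.077). Wall-associated receptor kinase 2 on 5B (L_074394, chr5B_part1 71343961 to 71640767), whose primers are printed above, was at 2.04 and 0.869 FPKM in TAM111 dry against 12.6 wet and at 2.36 and 1.37 in TAM112 dry against 7.95 and 11.5 wet (change -2.15, SE 0.28, adjusted p = 0.077). It is a merged locus of several genes, and part of its signal could belong to an overlapping locus. Wall-associated receptor kinase-like 16 on 2A (L_021108) had a change of -2.15 (adjusted p = 0.079). A copy of wall-associated receptor kinase 5 on 6B (L_095198), chosen after its value was seen, had the largest change, -5.33 (SE 1.39), but this rested on 869 FPKM in TAM112 wet 1 against 51.7 and 7.01 in the other wet libraries, and its entries could belong to an overlapping locus.

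Of 62 leucine-rich repeat, lectin and other receptor kinases, 1 fell, L_075276 above, and none rose. With no overlap, 17 were at least 2-fold lower (20 without TAM111 dry 1), against 1.52% of all loci. The median was -0.81. The iron-deficiency induced receptor-like kinase L_036717 on 3A had closely grouped values, 4.68, 4.62, 4.36 and 4.65 FPKM in the dry libraries against 13.1, 13.3 and 11.1 in the wet (change -1.28, SE 0.16, adjusted p = 0.068). The receptor-like kinase L_028922 on 2D had a change of -1.37 (adjusted p = 0.077). The Xa21-like kinase L_042878 on 3B, named for the rice receptor of bacterial blight, was at 4.41 and 2.37 FPKM in TAM111 dry against 20.1 wet and at 2.30 and 5.53 in TAM112 dry against 21.6 and 18.7 wet (change -2.23, SE 0.30, adjusted p = 0.078). Disease resistance proteins, the intracellular receptors, had a median of -0.76 over 13 loci with no call and none past 2-fold without overlap, or up to 2 with 1 library left out (2 without TAM111 wet 1 or TAM112 dry 2). Those with the smallest p were L_021594 on 2A (change -0.89), L_120050 (-1.60), L_117906 on 7D (-0.79) and L_016929 on 2A (-0.95).

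Transporters differed in direction. Of 14 amino acid, peptide and nitrate transporters 1 fell, the vacuolar transporter of 5B, while 3 were at least 2-fold higher and 4 lower without overlap. Cationic amino acid transporter 5 on 4D (L_066400) was at 10.6, 8.41, 11.1 and 8.12 FPKM in dry and 26.2, 23.4 and 21.0 in wet libraries (change -1.24, SE 0.19, adjusted p = 0.092). The avt1a transporter on 6B (L_095971) went the other way, by 1.21 (adjusted p = 0.11). Sugar transport protein 13, which takes up hexoses, was at 1.58 and 0.935 FPKM in TAM111 dry against 16.1 wet on 4A (L_054218) and at 2.04 and 3.02 in TAM112 dry against 10.9 and 7.51 wet (change -2.09, adjusted p = 0.10), with entries that could belong to an overlapping locus. Of 14 ABC transporters 4 were at least 2-fold lower with no overlap (4 without TAM111 dry 1, where 2 were higher), among them family A member 8 on 6D (L_097681), at 40.6 to 56.6 FPKM in dry and 95.1 to 129 in wet libraries (change -1.28, adjusted p = 0.085), and G member 50 on 4B (L_061483), which had a change of -1.40. F member 1 on 4D (L_063925) had a change of 1.0. The 5 aquaporins, which carry water through membranes, all overlapped, with changes between -0.80 and -0.23. For TIP1-1 on 4A (L_058763) the change was -0.55 (adjusted p = 0.42).

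Early light-inducible proteins were lower in dry leaves at all 6 loci. The 5B locus L_076744 fell, and the median was -1.21. With no overlap, 5 of 6 were at least 2-fold lower, against 1.52% of all loci. TAM111 wet 1 was the highest wet library at all 5, and without it 3 of 6 were lower in this way. The 5B locus L_075328 was at 6.29 and 5.36 FPKM in TAM111 dry against 17.3 wet and at 3.42 and 4.03 in TAM112 dry against 9.62 and 12.9 wet (change -1.39, SE 0.18, adjusted p = 0.076), and the loci on 6B (L_092690) and 7A (L_106457) had changes of -1.07 and -1.24. Chlorophyll-binding, photosystem and Rubisco activase loci had positive changes at all 6, none past the test (median 1.27). The photosystem II 10 kDa protein L_025020 was at 8.32 and 8.89 FPKM in TAM111 dry against 5.21 wet and at 23.8 and 21.0 in TAM112 dry against 6.88 and 3.89 wet (change 1.40, adjusted p = 0.18). Rubisco activase on 4B (L_060058) had a change of 2.27, and that on 4D (L_064620) overlapped. Outside these lists, aldo-keto reductase 3 on 2A (L_018708), of an enzyme family that reduces aldehydes, was at 0.154 to 0.738 FPKM in dry and 3.43 to 4.90 in wet libraries (change -1.80, SE 0.22, adjusted p = 0.070).

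Within each cultivar, 9 loci were called in TAM111 (0.0243% of loci, 4 higher and 5 lower when dry) and 27 in TAM112 (0.0729%, 17 higher and 10 lower), and none in both. The 2 comparisons share no library. Of the 27 loci called in TAM112, 15 moved in the same direction in TAM111 and 9 showed no difference there. Of the 9 called in TAM111, 4 moved in the same direction in TAM112 and 3 showed no difference. The change itself differed between cultivars at 9 loci (interaction, adjusted p below 0.05, 0.0243%), none of them in the gene lists. At 6 of the 9 an entry could belong to an overlapping locus, and most were at or near 0 in some groups and high in others. A locus on 6B, not among those 6, was at 915 and 703 FPKM in TAM112 dry and at most 0.279 in every other library. Its entry with the largest overlap had at most 3.9 implied fragments in any library. Whether the high values belong to the annotated gene was not tested.

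The small heat shock proteins had higher changes, counted with their sign, in TAM112 than in TAM111 at 30 of 33 loci, against 54.9% of all loci. Their medians were 3.06 in TAM112 and 1.25 in TAM111. This was not particular to them. The change was also higher in TAM112 at 12 of 12 ClpB1, Hsp90 and Hsp70 loci, 10 of 10 dehydrins and 373 of all 550 listed loci. It was higher at 3 of 6 other LEA proteins and 4 of 10 CBL-interacting kinases. Counted with its sign, a weaker fall in TAM112 is also a higher change. For wall-associated kinases the change was higher at 16 of 20, with medians of -2.02 in TAM111 and -1.34 in TAM112. The TAM111 change rests on 1 wet library. Both TAM112 dry libraries exceeded both TAM111 dry libraries at 28 of the 33 small heat shock proteins. The study's lists include loci that it called in TAM112 only, so these counts are not independent evidence of a cultivar difference. At an unadjusted p below 0.05 the interaction was met at 17 of the 33, against 5.41% of all loci, but at none after adjustment over all loci. The smallest p was that of the 17.9 kDa protein L_065079 on 4D, at 0.760 and 0.744 FPKM in TAM111 dry and 13.8 and 11.9 in TAM112 dry, with all wet libraries at 0. Its changes of 0.81 and 3.79 differed with an adjusted p of 0.19. The 21.9 kDa protein on 4A (L_056187) was listed at 0 in all TAM111 libraries and stood at 3.61 and 4.34 FPKM in TAM112 dry (adjusted p = 0.41). Larger differences in TAM111 were seen at wall-associated receptor kinase 5 on 3A (L_041014), with -3.56 against -0.42 (adjusted p = 0.29), and at the disease resistance protein rf9 on 7B (L_111303), with -2.36 against -0.04 (adjusted p = 0.34). The latter was at 14.8 FPKM in TAM111 wet and close to 0 in TAM112.

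**Figure D4:**
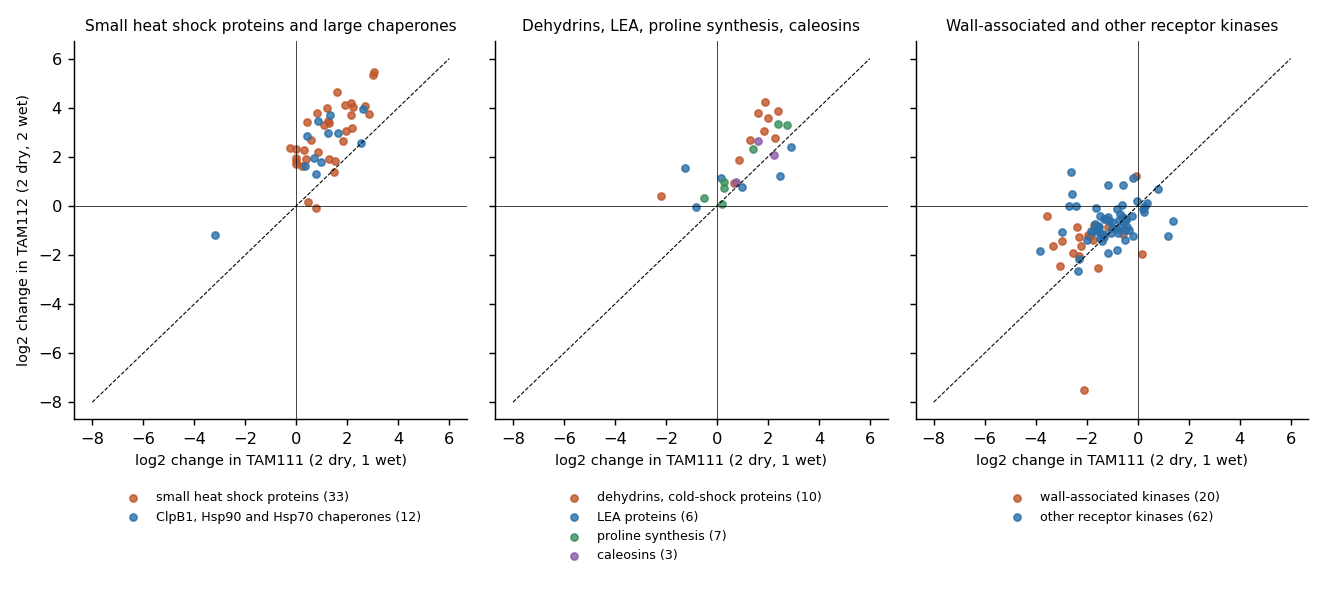
Each point is a tested locus, with its dry minus wet change of log2(FPKM + 1) in TAM111 on the horizontal and in TAM112 on the vertical axis, and the dashed line marks equal changes. Most small heat shock proteins lie above the line (30 of 33), with medians of 1.25 in TAM111 and 3.06 in TAM112. So do 12 of 12 larger chaperones and 10 of 10 dehydrins, against 3 of 6 other LEA proteins.

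The highest value of a treatment was often in the same library. At the 632 loci higher in dry leaves by at least 2-fold without overlap, the highest dry library was TAM112 dry 1 at 49.5%, and at 74.4% of the 121 such loci in the gene lists. At the 561 loci lower in dry leaves, the highest wet library was TAM111 wet 1 at 54.4%, and at 67.4% of the 92 listed loci. For dehydrins and P5CS2 the highest library was TAM112 dry 1 at every such locus, and for small heat shock proteins it was the highest of the 7 libraries at 24 of 33. Over all loci, 704 were higher without TAM112 dry 1 and 767 lower without TAM111 wet 1. With fewer libraries not overlapping is easier to meet, so these counts do not show that the changes are independent of these libraries.

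**Figure D5:**
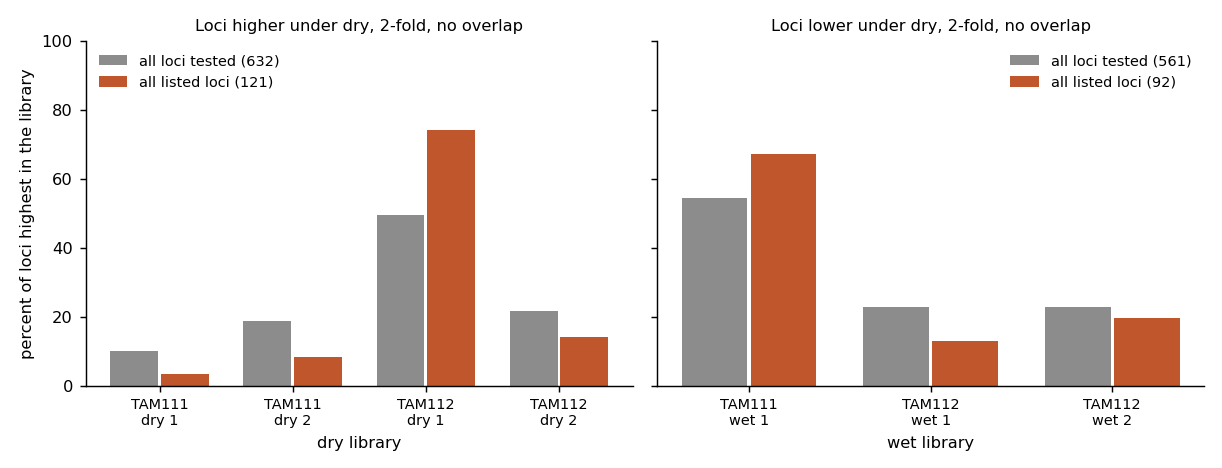
Bars give the percent of loci at which a library had the highest value of its treatment, for all loci tested (grey) and for listed loci (orange), separately for loci higher (left) and lower (right) under dry conditions by at least 2-fold without overlap. TAM112 dry 1 was highest at 49.5% of all and 74.4% of listed loci on the left, and TAM111 wet 1 at 54.4% and 67.4% on the right.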

How the data were processed

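Reads had been sequenced from poly-A libraries of pooled flag leaves. The authors trimmed them (Trimmomatic 0.38, after bcl2fastq 1.7 per the labels), aligned them to IWGSC RefSeq v1.0 with TopHat and assembled each library with Cufflinks, and they deposited 1 FPKM value per gene and library with a catalogue merged by Cuffmerge. Each FPKM entry was assigned with bedtools 2.31.1 to the overlapping catalogue locus that names its gene, otherwise to that with the largest overlap, without strand, and summed; a missing entry counted as 0. Coordinates are those of the catalogue, counted from 1 on parts of chromosomes.

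Values were tested as log2(FPKM + 1) with limma 3.58.1 in R 4.3.3 (cultivar plus treatment, 4 residual degrees of freedom, mean-variance trend; group means, 3 degrees of freedom, for each cultivar and the interaction), with Benjamini-Hochberg adjustment over all 37023 loci. DEGs had an adjusted p below 0.05 and a change of at least 1. On simulated data made from these values the dry–wet fit recovered 70% of 100 loci changed by 2 and 94% of 100 changed by 3, and called 5 unchanged loci. The changes were planted only in loci with a mean log2(FPKM + 1) above 2. The noise was independent and normal, with the fitted spread of each locus. These shares therefore cannot be carried over to weakly expressed loci or to loci where 1 library stands out.

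Members, gene lists and product names were chosen with earlier results of these data known. Product names came from the study's gene lists, of which 550 of 694 loci were tested; 63 had no gene name and 81 were under the FPKM minimum. Named were called loci with a product, filled to 12 in each direction by the smallest p; the 4 smallest p of each list; copies on the A, B and D chromosomes; RT-qPCR loci; the largest changes without a product; and the smallest interaction p. The RT-qPCR locus of dehydrin DHN3 (L_100237) was at 0 in all libraries. It lies inside L_098330 on the opposite strand, which carries the same gene identifier, so the 2 cannot be told apart. Alternatives covered the pseudocount, filter, scaling, trend, library set, cultivar term and replicate block.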

Additional observations from a re-analysis of the deposited data

Results flagged for a closer look

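The dry minus wet change differed between TAM111 and TAM112 at 9 of 37023 loci (interaction, limma, adjusted p below 0.05). None is in the gene lists, and the wet side of TAM111 is 1 library. Of the 9, 6 have entries that could belong to an overlapping locus, against 2466 of all loci tested. A locus on 3A was at 644 FPKM in TAM111 wet and at most 1.0 elsewhere, 1 on 5B at 213 and 156 in TAM111 dry and 0 elsewhere, and 1 on 1D at 55.0 and 51.0 in TAM112 dry and at most 0.446 elsewhere. The entry with the largest overlap had at most 8.2 implied fragments in any library at the 3A locus. It had at most 11.9 at the 1D locus and up to 450 at the 5B locus. Whether these values belong to the annotated genes was not tested.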

How the results depend on the processing

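The 49 dry–wet DEGs became 491 when 8 group means were fitted to all 15 libraries, 17 when every library had to reach the FPKM minimum, 7 with no filter and 0 in TAM112 alone (limma, with 3792 loci at an unadjusted p below 0.05). The counts stayed between 36 and 50 with a pseudocount of 0.1, median-ratio scaling, quantile normalization, no trend, no cultivar term, or without loci whose entries could belong to another locus. Leaving out 1 library at a time gave 1 to 27. For TAM111 the 9 calls became 137 with all 15 libraries, 320 with no filter, 5 with the strict filter, 4 without doubtful loci and 0 to 1 with 1 library left out. For TAM112 the 27 calls became 188, 4, 0, 6 and 0 to 27 in the same order (18 with a pseudocount of 0.1), with 2474 loci at an unadjusted p below 0.05 under the strict filter. For the interaction the 9 became 29, 525, 0, 1 and 0 to 1, and 4 with a pseudocount of 0.1, with 1143 loci at an unadjusted p below 0.05 under the strict filter. The causes were not tested.

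Of the named loci, 2 changed sign. The CS120 locus L_098325 stood at 0.39 in TAM112 alone, and between -1.33 and 0.39 (without TAM111 wet 1) with 1 library left out. The 6D LEA-like locus L_097631 ranged from -0.026 (without TAM112 wet 2) to 1.55 (without TAM111 wet 1). Over the named loci and alternatives, a call was lost 188 times, gained 54 times and kept its side 1494 times.

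The replicate numbers of the labels were tried as a replicate block, which left 2 DEGs, with 0 calls in TAM111, 3 in TAM112 and 0 for the interaction (limma; 2686 and 1837 loci at an unadjusted p below 0.05 where there was no call). Deviations of same-numbered libraries correlated at -0.018 to 0.012. The labels do not say whether same-numbered libraries were grown together, so these correlations cannot decide whether the block belongs in the fit. The cause of the drop to 2 DEGs was not tested. Depth limits the precision of loci such as L_050062, whose dry values rested on about 4 to 14 implied fragments a library.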
